A study of Mus musculus with 14 samples.

Results

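The MyoAAV2 experiment asked how the transcriptome of a complex I-deficient heart changes when Atf3 is knocked down in muscle. It consisted of the 6 bulk RNA-seq libraries, of 14 in the series, that the sample labels assign to a MyoAAV2 vector: 3 labelled MyoAAV2-shAtf3, the Atf3 knockdown group, and 3 labelled MyoAAV2-shCtrl, the control group. All 6 came from whole hearts of female mice. The study describes the mice as FS6KD, carrying a knockdown of Ndufs6, a subunit of respiratory complex I, and the controls carried it too. The vectors were given to neonatal mice and hearts were taken 12 weeks after injection. The vector was a muscle-directed adeno-associated virus, and its cargo was an shRNA (a hairpin that silences a transcript by RNA interference) to Atf3 or a control one. The promoter driving the hairpin, the vector dose and the hairpin sequences were not given in the sources used here. The other 8 libraries belonged to a separate experiment, which was used here as a point of comparison. In it, 4 Atf3-/-FS6KD hearts were set against 4 from Atf3+/+FS6KD mice. These 8 hearts were taken at 12 weeks and are labelled female too.

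ATF3 is a stress-induced transcription factor of the ATF/CREB family that binds cyclic AMP response elements and AP-1-like sites and can repress or activate its targets. In the heart it is induced in cardiomyocytes by mitochondrial and mechanical stress and is also expressed in fibroblasts and macrophages. A muscle-directed virus enters mainly cardiomyocytes in this organ, whereas most of the collagen-rich matrix is made by fibroblasts. A whole-heart library sums the RNA of both.

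The deposited column names read opposite to the sample labels. The columns named Atf3 belong to the samples labelled shCtrl, and the columns named Cont belong to those labelled shAtf3. Atf3 itself did not settle the direction. It was present at 10.1, 13.3 and 14.1 CPM (counts scaled to a common library total) in the libraries labelled shCtrl and at 21.2, 12.1 and 16.5 CPM in those labelled shAtf3 (replicates 1 to 3 in this and every later sequence of 3 values). The groups overlapped, and the difference did not pass the test (log2 fold change 0.41 with an SE of 0.19, adjusted p 0.42 in edgeR). It was numerically higher under the knockdown label, and numerically lower under it if the column names are followed. Every direction below is given for the libraries as labelled, so "higher" and "lower" refer to labelled shAtf3 over labelled shCtrl. If the column names are right, each sign turns and its size, standard error (SE) and p-value stay as they are. Ndufs6 was at 2.47 to 3.33 raw CPM in those labelled shCtrl and 2.66 to 3.72 raw CPM in those labelled shAtf3.

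Because ATF3 binds TGACGTCA and the AP-1 sequences TGACTCA and TGAGTCA, the promoters of the called genes were searched for these letters on both strands over the 250 bases before the transcription start (RefSeq, GRCm38.p6). Among 11297 tested genes with a promoter entry, 2.81% held TGACGTCA and 4.06% held TGACTCA or TGAGTCA. Of the 82 genes that differed between the groups, 44 lower and 9 higher genes as labelled had an entry. TGACGTCA was in 0 of the 44 and in 1 of the 9, the predicted gene Gm13584, which passed the filter only through the libraries labelled shAtf3. TGACTCA or TGAGTCA was in 2 of the 44, Col6a1 and C1qtnf6 (4.55%), and in 0 of the 9. The shorter core TGACG or its complement CGTCA, which is also part of TGACGTCA, was in 3 of the 44 (6.82%) and 3 of the 9, against 29.2% of all. Among these were Ecrg4, lower, and Gm13584, higher, each tested only through the group where it was high, so nothing is read from their matches. The sequences below show both stretches with an AP-1 match, those of Col3a1 and Fmod, lower collagen and proteoglycan genes without one, and that of Hsd17b7, a higher gene. The Hsd17b7 stretch has no AP-1 match but holds the core TGACG, which is left in lower case. Each runs 5′ to 3′ on the strand of its gene, ends at the base before the start site of its RefSeq entry, and has TGACTCA in capitals. For C1qtnf6 that start is an internal one, 2519 bases inside the outer end of the gene (chr15:78523346-78532170), for Hsd17b7 it lies 37 bases inside, and for the other 3 it is the outer end.
Col6a1 (chr10:76726045-76726294, minus strand): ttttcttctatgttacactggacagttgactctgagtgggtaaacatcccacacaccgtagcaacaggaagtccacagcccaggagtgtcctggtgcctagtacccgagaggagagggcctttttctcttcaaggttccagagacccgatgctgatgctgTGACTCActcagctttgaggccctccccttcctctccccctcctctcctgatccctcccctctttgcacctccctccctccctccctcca
C1qtnf6 (chr15:78529652-78529901, minus strand): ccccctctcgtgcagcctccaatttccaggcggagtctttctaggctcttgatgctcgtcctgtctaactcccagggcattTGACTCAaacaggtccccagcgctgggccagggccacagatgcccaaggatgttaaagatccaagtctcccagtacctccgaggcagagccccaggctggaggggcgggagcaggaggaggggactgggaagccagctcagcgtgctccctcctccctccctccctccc
Col3a1 (chr1:45311288-45311537, plus strand): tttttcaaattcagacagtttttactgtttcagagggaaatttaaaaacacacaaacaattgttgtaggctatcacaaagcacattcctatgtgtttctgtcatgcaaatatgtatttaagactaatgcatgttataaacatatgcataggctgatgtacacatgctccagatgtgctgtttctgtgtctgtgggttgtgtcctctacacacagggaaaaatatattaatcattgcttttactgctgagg
Fmod (chr1:134037004-134037253, plus strand): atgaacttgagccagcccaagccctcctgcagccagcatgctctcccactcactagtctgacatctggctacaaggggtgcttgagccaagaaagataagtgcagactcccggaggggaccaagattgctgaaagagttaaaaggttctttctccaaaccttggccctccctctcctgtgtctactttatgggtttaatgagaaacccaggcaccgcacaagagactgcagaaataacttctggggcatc
Hsd17b7 (chr1:169969206-169969455, minus strand): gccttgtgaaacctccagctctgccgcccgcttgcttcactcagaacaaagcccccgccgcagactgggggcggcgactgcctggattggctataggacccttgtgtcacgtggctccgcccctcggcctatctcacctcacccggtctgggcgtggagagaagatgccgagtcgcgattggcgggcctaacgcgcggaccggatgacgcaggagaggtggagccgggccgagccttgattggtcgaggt

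The match in Col6a1 begins 90 bases before the start and that in C1qtnf6 begins 169 bases before it. Most genes that differed therefore held none of these letters in this window, which says nothing of binding elsewhere.

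Of 15225 genes tested (above 1 CPM in at least 1 library), 82 (0.539%) differed at a Benjamini-Hochberg adjusted p below 0.05 in edgeR's quasi-likelihood test. Of these, 69 (0.453%) were lower and 13 (0.0854%) were higher as labelled. The groups overlapped for none of the 82 genes. For 6 of them (Ecrg4, B4galnt3, Ccl11 and the predicted genes Gm51533, Gm36746 and Gm13584) 1 group was below 1 CPM in every library, so that they were tested only through the group where they were high. Over all genes tested, 9.94% were lower and 8.48% higher without overlap, and the median log2 fold change was −0.00294. Matrix genes made up 27 of the 69 lower genes and 0 of the 13 higher ones. Genes on the muscle lists contributed 3 lower and 2 higher, and genes on the immune lists 1 lower and 1 higher.

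The calls depended on single libraries. Sfrp2 alone kept its call whichever of the 6 libraries was left out, Mfap4 kept it in 4 of 6 cases, and 50 of the 82 genes kept it in 1 case only. Without shCtrl replicate 1, 2 or 3, 26, 4 and 69 of the 69 lower genes were still called, and without shAtf3 replicate 1, 2 or 3, 1, 1 and 5 were. All 82 kept their direction in every one of these 6 fits. When all 14 libraries of the series shared 1 estimate of the spread, only Mmp2 was called (edgeR adjusted p 0.0421). The total count ran from 38147825 to 40534913 for shCtrl and from 30085432 to 34386778 for shAtf3 libraries, so depth moved with the group. After every library was thinned to the smallest total, 85 genes were called, 72 lower and 13 higher.

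**Figure D1:**
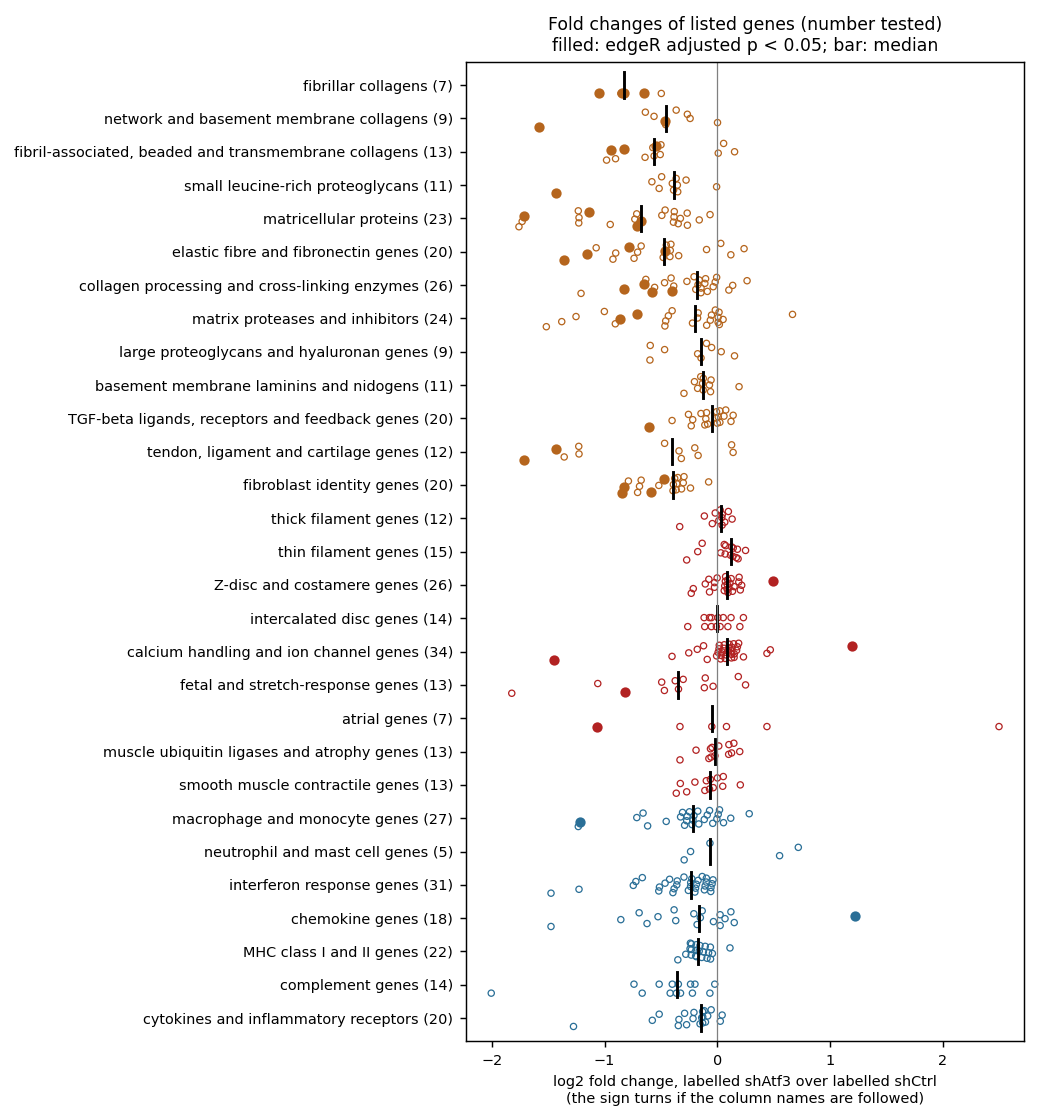
Log2 fold change (x axis, labelled shAtf3 over labelled shCtrl) of each tested gene on the matrix (brown), muscle (red) and immune (blue) lists, one row a list. Filled points passed an edgeR adjusted p of 0.05 and black bars are medians: matrix medians run from −0.82 to −0.05, most muscle medians sit near 0, and most immune medians lie slightly below 0.

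The extracellular matrix was the program with the most calls. On 13 matrix lists, 238 genes were listed and 194 were tested; 166 of these had a negative and 28 a positive log2 fold change, with a median of −0.36. The test was passed by 27 (13.9% of the tested, against 0.453% of all genes), all lower, and 91 (46.9%) were lower without overlap, against 9.94% of all genes. Under the column names the same 27 genes would be higher with Atf3 knockdown. The 44 listed genes below the filter included the cartilage genes Col2a1, Acan and Chad. List members were chosen with earlier results of these data known, so these shares are no independent test of the matrix program.

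Fibrillar collagens form the load-bearing fibres of scar and interstitium. All 7 that were tested, of 11 listed, had negative fold changes (median −0.82), and 4 (57.1%, beside 0.453% of all genes) fell as labelled. Col3a1, which forms the compliant fibres of early scar, was at 746, 519 and 478 CPM in the libraries labelled shCtrl and at 257, 261 and 323 CPM in those labelled shAtf3 (log2 fold change −1.05 with an SE of 0.16, adjusted p 0.0328 in edgeR). Every control-labelled library lay above every knockdown-labelled one, and shCtrl replicate 1 stood highest. Col1a1 and Col1a2 encode the chains of collagen I, the stiff main fibre of scar. Col1a1 was at 199, 162 and 147 against 92.8, 87.3 and 103 CPM (log2 fold change −0.84 with an SE of 0.11, adjusted p 0.0293 in edgeR). Col1a2 was at 316, 268 and 237 against 152, 143 and 169 CPM (log2 fold change −0.82 with an SE of 0.11, adjusted p 0.0293 in edgeR). The fold changes of the 2 chains were within 1 SE of each other. Col5a1, which nucleates collagen I fibrils, fell from 69.3 ± 8.71 to 44.2 ± 3.67 CPM (log2 fold change −0.65 with an SE of 0.10, adjusted p 0.0328 in edgeR), where ± is the SD over 3 hearts here and below. Its partner chain Col5a2 did not pass (log2 fold change −0.86, edgeR adjusted p 0.0799), and neither did Col5a3 or Col27a1.

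Among network and basement membrane collagens, 8 of 9 tested genes had negative fold changes and 2 (22.2%, beside 0.453% of all genes) were called. Col8a2, a short-chain collagen of remodelling tissue, was at 11.5, 11.3 and 7.78 CPM in the control-labelled libraries and at 3.35, 3.17 and 3.7 CPM in the knockdown-labelled ones (log2 fold change −1.58 with an SE of 0.16, adjusted p 0.0137 in edgeR), a greater difference than that of any other collagen called. Col18a1, the precursor of endostatin, went from 19.4 ± 0.544 to 14 ± 0.156 CPM with little spread in either group (log2 fold change −0.47 with an SE of 0.07, adjusted p 0.0299 in edgeR). The fibril-associated, beaded and transmembrane collagens gave 3 calls among 13 tested genes (23.1%). Col14a1 and Col16a1, which decorate collagen fibrils, fell by 0.95 and 0.83 on the log2 scale (edgeR adjusted p 0.0372 and 0.0293). Col6a1, a chain of the beaded filaments around cells, was at 123 ± 16.2 against 84.7 ± 2.5 CPM (log2 fold change −0.54 with an SE of 0.09, adjusted p 0.0463 in edgeR), and its partner Col6a2 had a similar fold change that was not called (log2 fold change −0.56, edgeR adjusted p 0.116). Col16a1 shares reads with a listed copy on an alternate locus, Col16a1_1, so its level is uncertain. The copy was called too (log2 fold change −0.82).

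Matricellular proteins sit in the matrix and modulate cell behaviour rather than bearing load. All 23 that were tested, of 28 listed, had negative fold changes (median −0.68), 17 of them (73.9%, beside 9.94% of all genes) without overlap, and 4 (17.4%, beside 0.453%) were called. Comp, which binds collagens and is best known in cartilage and tendon, was at 57.8, 65.5 and 41 CPM in the libraries labelled shCtrl and at 16.4, 17.6 and 16 CPM in those labelled shAtf3 (log2 fold change −1.72 with an SE of 0.15, adjusted p 0.0100 in edgeR). The knockdown-labelled libraries were close together, whereas the control-labelled ones spread widely with replicate 3 lowest. The predicted gene Gm51533, also called, overlaps Comp by 1313 bases on chromosome 8, so part of its signal may be reads of Comp. Postn, a secreted marker of activated fibroblasts, was at 549, 418 and 319 against 196, 202 and 186 CPM (log2 fold change −1.14 with an SE of 0.16, adjusted p 0.0299 in edgeR). The CCN family members Ccn2 and Ccn5, with opposing effects on fibrosis as background, fell together (log2 fold changes −0.71 and −0.68, SE 0.12 and 0.09, edgeR adjusted p 0.0463 and 0.0299). The predicted gene Gm15270, called lower too, overlaps Ccn2 by 362 bases, so the 2 calls may not be separate. Cthrc1, a marker of matrix-producing fibroblasts, passed the filter only through the libraries labelled shCtrl and was not called, at 2.46, 1.23 and 1.04 against 0.474, 0.449 and 0.476 CPM (log2 fold change −1.76 with an SE of 0.37, adjusted p 0.0945 in edgeR). Its reads are divided with a copy of identical values, Cthrc1_1. Spp1, or osteopontin, was at 6.52, 3.04 and 3.37 against 0.741, 2.18 and 2.65 CPM and was not called (log2 fold change −1.23, edgeR adjusted p 0.27).

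**Figure D2:**
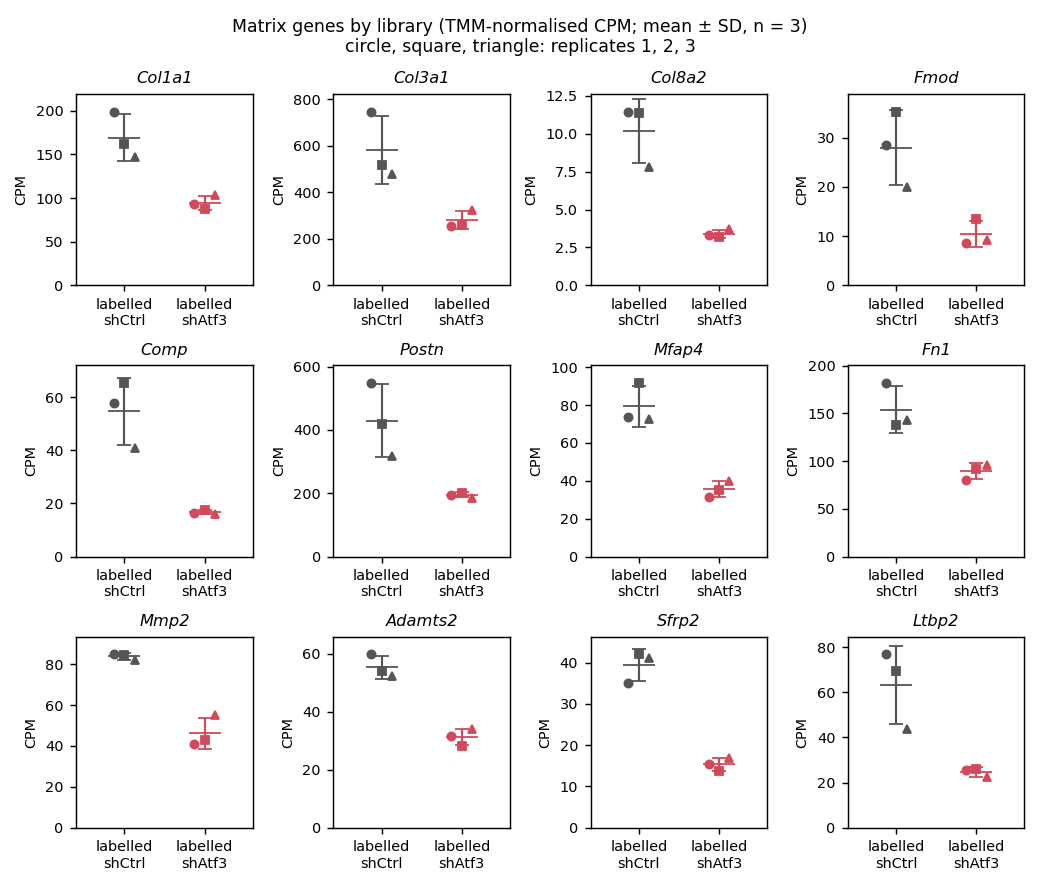
TMM-normalised CPM (y axes, linear, from 0) of 12 matrix and matrix-associated genes in each of the 3 libraries labelled shCtrl (grey) and the 3 labelled shAtf3 (red), with mean and SD. In all 12 panels every red point lies below every grey point, and in 10 of the 12 shCtrl replicate 3 (grey triangle) is the lowest of its group.

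Small leucine-rich proteoglycans bind collagen fibrils and set their diameter. All 11 tested genes had negative fold changes (median −0.39), and Fmod, encoding fibromodulin, was the 1 called (9.09%, beside 0.453% of all genes), at 28.6, 35.3 and 20.1 against 8.53, 13.5 and 9.24 CPM (log2 fold change −1.43 with an SE of 0.22, adjusted p 0.0348 in edgeR). Aspn (−0.49), Lum (−0.35) and Bgn (−0.58) had adjusted p-values of 0.0716, 0.0799 and 0.121 in edgeR, with no overlap between the groups. Elastic fibre and fibronectin genes gave 4 calls among 20 tested (20%, beside 0.453% of all genes). Mfap4, a microfibril protein, was at 73.6, 91.8 and 72.5 against 31.5, 35.3 and 40.1 CPM (log2 fold change −1.15 with an SE of 0.11, adjusted p 0.0137 in edgeR). Ltbp2 and Ltbp3 encode latent TGF-β binding proteins of the microfibril family. Ltbp2 was at 77, 69.3 and 43.9 against 25.8, 26 and 22.3 CPM (−1.36, SE 0.18) and Ltbp3 at 60.3, 67.3 and 65.8 against 46.5, 45.5 and 48.1 CPM (−0.47, SE 0.06), with edgeR adjusted p-values of 0.0293 and 0.0299. Fn1, encoding fibronectin, was at 182, 137 and 143 against 80.5, 91.6 and 96.3 CPM (log2 fold change −0.78 with an SE of 0.11, adjusted p 0.0299 in edgeR). The control-labelled values of Ltbp2 spread by more than those of Ltbp3, and neither gene had overlapping groups.

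Enzymes that process, cross-link or cleave collagen changed in part. Of 26 tested processing genes, 23 had negative fold changes (median −0.18) and 4 (15.4%, beside 0.453% of all genes) were called. Adamts2 and Bmp1, which cut the propeptides from procollagens, were at 55.3 ± 4.02 against 31.2 ± 2.82 CPM (log2 fold change −0.83 with an SE of 0.08, adjusted p 0.0137 in edgeR) and at 35.6 ± 0.511 against 26.9 ± 1.47 CPM (log2 fold change −0.40 with an SE of 0.07, adjusted p 0.0415 in edgeR). P3h3, a prolyl hydroxylase family member, and Loxl2, a lysyl oxidase that cross-links collagen, fell by 0.58 and 0.65 on the log2 scale (edgeR adjusted p 0.0299 and 0.0299). Of 24 proteases and inhibitors, 18 had negative fold changes and Mmp2 and Mmp23 were called (8.33%). Mmp2, a gelatinase, was at 85, 84.6 and 82.1 against 40.7, 43.2 and 55 CPM (log2 fold change −0.86 with an SE of 0.10, adjusted p 0.025 in edgeR). The predicted gene Gm45472 overlaps it by 612 bases and was called in the same direction. Timp1, an inhibitor of these proteases, was not called (log2 fold change −1.52, edgeR adjusted p 0.149), and was at 38.5, 15.1 and 13.9 against 7.64, 9.17 and 6.8 CPM, with shCtrl replicate 1 far above the rest.

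Other parts of the matrix gave 0 to 2 calls a list. The 11 tested laminins and nidogens of the basement membrane had a median of −0.13 and fold changes from −0.30 to 0.19, and the 9 tested large proteoglycans and hyaluronan genes a median of −0.15, with ranges of −0.16 to −0.076 and −0.24 to −0.042 when 1 library was left out and with 0 genes called in both lists by edgeR and by DESeq2 (2 in each at an unadjusted p below 0.05 in edgeR). Among 20 genes of TGF-β signalling, the main profibrotic pathway, only the ligand Tgfb3 was called (5%, beside 0.453% of all genes called lower), at 39, 38.4 and 35.5 against 25, 21.6 and 27.4 CPM (log2 fold change −0.61 with an SE of 0.09, adjusted p 0.0328 in edgeR), and the list's median was −0.05 (−0.098 to −0.015 when 1 library was left out). On the tendon, ligament and cartilage list, 12 of 23 genes were tested, 10 had negative fold changes, and the called genes were Comp and Fmod again (16.7%). Tnmd, a tendon cell marker, passed the filter only through the libraries labelled shCtrl, at 1.52, 1.43 and 0.81 against 0.385, 0.513 and 0.578 CPM (log2 fold change −1.36, edgeR adjusted p 0.121). Scx, a tendon transcription factor, had a log2 fold change of −0.32 (edgeR adjusted p 0.41), so neither passed.

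Fibroblast identity genes were counted among the matrix lists above, and 6 of the 20, Col1a1 and Col1a2 included, are on another matrix list too. Without this list, 180 matrix genes were tested, 152 had negative fold changes and 25 were called, all lower. All 20 fibroblast identity genes had negative fold changes (median −0.39), 15 (75%, beside 9.94% of all genes) without overlap, and 4 (20%, beside 0.453%) were called, namely Col1a1, Col1a2, Dpt and Cd248. Dpt, encoding dermatopontin, was at 126, 136 and 119 against 87.2, 94.7 and 92.6 CPM (log2 fold change −0.47 with an SE of 0.07, adjusted p 0.0299 in edgeR), and Cd248, endosialin, at 20.6, 24.9 and 22 against 16.3, 14.1 and 14.5 CPM (log2 fold change −0.58 with an SE of 0.10, adjusted p 0.0409 in edgeR). All 6 of the shorter fibroblast marker list (which holds the matrix genes Col1a1, Dcn, Lum and Dpt) were lower numerically, and its summed raw level was 1431 to 1826 CPM in the libraries labelled shCtrl and 1132 to 1311 CPM in those labelled shAtf3. In bulk tissue, fewer fibroblasts and less RNA of these genes per fibroblast cannot be told apart. Cardiomyocyte markers summed to 49380.3 to 54539 and 51992 to 55762 raw CPM, with overlapping ranges and 6 of 6 numerically higher under the knockdown label. Endothelial markers summed to 729 to 778 and 708 to 771 raw CPM, with overlapping ranges. Schwann cell markers summed to at least 6.37 raw CPM in each library labelled shCtrl and at most 6.09 in each labelled shAtf3, 3 of 3 tested with negative fold changes and none called, and tendon and cartilage cell markers to 10.5 to 12.3 and 8.79 to 9.12 raw CPM without overlap. Their part in the called genes was not tested.

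Genes outside the lists made up 38 of the 69 lower calls. Sfrp2, a secreted modulator of Wnt signalling made by fibroblasts, gave the smallest adjusted p of all genes. It was at 35.1, 42.1 and 41.1 CPM in the control-labelled libraries and at 15.5, 13.7 and 16.9 CPM in the knockdown-labelled ones, with little spread in either (log2 fold change −1.36 with an SE of 0.10, adjusted p 0.00404 in edgeR). Ecrg4, a secreted peptide precursor that passed the filter only through the libraries labelled shCtrl, was at 2.36 ± 0.658 against 0.712 ± 0.0604 CPM (−1.73, SE 0.25, edgeR adjusted p 0.0299). Further lower genes encode secreted or pericellular proteins, as background: Adamtsl2, a microfibril-associated ADAMTS-like protein (59 ± 7.4 against 32.1 ± 2.68 CPM), Serpinf1, an antiangiogenic serpin (82 ± 12.4 against 47 ± 1.27 CPM), and Ctsk, cathepsin K (10.4 ± 0.809 against 6.6 ± 0.775 CPM). Ptn, a heparin-binding growth factor, was at 17.1, 21 and 19 against 11.9, 9.36 and 6.9 CPM (log2 fold change −1.02 with an SE of 0.17, adjusted p 0.0439 in edgeR). Dclk3, a doublecortin-like kinase, was at 2.8, 3.41 and 2.9 against 1.69, 1.35 and 0.986 CPM (log2 fold change −1.17 with an SE of 0.20, adjusted p 0.0463 in edgeR). The genes of this paragraph other than Sfrp2 and Dclk3 were chosen after their values were seen. Ncam1, a neural cell adhesion molecule also found on stressed cardiomyocytes, was at 4.54, 4.87 and 4.18 against 2.43, 1.86 and 2.45 CPM (log2 fold change −1.01 with an SE of 0.15, adjusted p 0.0299 in edgeR). Mrc2, which takes up collagen, and Antxr1, a collagen-binding receptor, fell by 0.60 and 0.56. Gpx3, the secreted glutathione peroxidase, was at 300.1 ± 14 against 214 ± 10.3 CPM (log2 fold change −0.49 with an SE of 0.06, adjusted p 0.0293 in edgeR).

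Muscle genes differed far less. Of 150 listed genes, 138 were tested, 84 with positive and 54 with negative fold changes (median 0.04). The median was 0.0042 without shCtrl replicate 1 and 0.068 without shCtrl replicate 3. The test was passed by 5 (3.62%, beside 0.539% of all genes), of which 2 were higher (1.45%, beside 0.0854%) and 3 lower (2.17%, beside 0.453%) as labelled. Without overlap, 17 (12.3%) were higher and 12 (8.70%) lower, beside 8.48% and 9.94% of all genes. Under the column names the signs turn, so that 3 muscle genes would be higher and 2 lower with Atf3 knockdown. The 5 were Myot, on the Z-disc list, and Aqp4, Piezo2, Uchl1 and Dkk3, on the channel, stretch-response and atrial lists. List members were chosen with earlier results of these data known, so these shares do not test the muscle program.

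The sarcomere showed no called gene in its filaments. Among 12 thick filament genes the median was 0.03 (−0.070 to 0.10 when 1 library was left out), and 0 were called by edgeR (1 at an unadjusted p below 0.05, and 1 by DESeq2). Myh6, the adult α-myosin heavy chain, was at 17639, 20045 and 21935 CPM in the control-labelled libraries and at 20966, 18909.9 and 22509.8 CPM in the knockdown-labelled ones, with overlapping groups (log2 fold change 0.07 with an SE of 0.09, adjusted p 0.817 in edgeR). Myh7, the β-myosin heavy chain of the fetal and failing heart, was at 1062, 1248 and 1326 against 1108, 1086 and 1163 CPM (log2 fold change −0.12 with an SE of 0.08, adjusted p 0.607 in edgeR). Of 15 thin filament genes, 12 had positive fold changes (median 0.12, and 0.055 without shCtrl replicate 1) and 0 were called by edgeR or DESeq2 (3 at an unadjusted p below 0.05 in edgeR). Actc1, cardiac α-actin, had a log2 fold change of 0.17 and Acta1, its skeletal form, one of 0.25 (edgeR adjusted p 0.294 and 0.57).

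The Z-disc list held 1 called gene, higher as labelled (3.85% of 26 tested, beside 0.0854% of all genes). Myot, which encodes the actin cross-linker myotilin, was at 46, 51.7 and 50.0 CPM in the libraries labelled shCtrl and at 69.2, 71.7 and 67.3 CPM in those labelled shAtf3 (log2 fold change 0.50 with an SE of 0.07, adjusted p 0.0293 in edgeR). The groups were far apart for their spread. The other 25 Z-disc and costamere genes tested were not called, and the list's median was 0.09 (0.047 with library size alone as the scaling). Cryab, a chaperone of the Z-disc (0.19), and Ldb3, its PDZ-LIM scaffold (0.19), were higher numerically without overlap (edgeR adjusted p 0.202 and 0.272). Genes of the intercalated disc, which couples the cells, divided evenly into 7 positive and 7 negative fold changes with 0 called by edgeR or DESeq2 (2 at an unadjusted p below 0.05 in edgeR).

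Channels and stretch-response genes gave calls in both directions, beside 0.453% of all genes called lower and 0.0854% higher. On the list of calcium handling and ion channel genes, 27 of 34 tested genes had positive fold changes (median 0.08, and 0.041 without shCtrl replicate 1), and 1 was called in each direction (2.94%). Aqp4, a water channel, was at 1.62, 1.86 and 1.54 against 3.91, 4.1 and 3.47 CPM (log2 fold change 1.19 with an SE of 0.14, adjusted p 0.025 in edgeR), low but higher in every knockdown-labelled library. Piezo2, a mechanically activated cation channel, went the other way, at 5.46, 4.29 and 3.19 against 1.66, 1.57 and 1.5 CPM (log2 fold change −1.45 with an SE of 0.21, adjusted p 0.0299 in edgeR). Of 13 tested fetal and stretch-response genes, 11 had negative fold changes (median −0.34, and −0.20 without shCtrl replicate 1) and Uchl1, a deubiquitinase, was the 1 called (7.69%), at 11.6, 13.4 and 12.7 against 8.3, 6.54 and 6.49 CPM (log2 fold change −0.82 with an SE of 0.12, adjusted p 0.0299 in edgeR). Ankrd1, a stretch-sensing titin partner, was at 2652, 2776 and 2720.3 against 2372, 1844 and 1669 CPM, separate but not called (log2 fold change −0.47 with an SE of 0.11, adjusted p 0.146 in edgeR). Nppa, the atrial natriuretic peptide gene, was at 785, 776 and 262 against 284, 337 and 254 CPM (log2 fold change −1.06 with an SE of 0.34, adjusted p 0.247 in edgeR). Its value in shCtrl replicate 3 lay within the knockdown-labelled range, and without that library Nppa was called (log2 fold change −1.42, edgeR adjusted p 0.00057). Dkk3, a Wnt modulator placed on the atrial list, was the only called gene of the 7 tested there (14.3%), at 19.6, 25.7 and 16 against 9.81, 10.2 and 9.28 CPM (log2 fold change −1.06 with an SE of 0.16, adjusted p 0.0299 in edgeR). The atrial genes Sln, Myl7 and Bmp10 were at or below 0.395 raw CPM in all 6 libraries. On the atrial myocyte marker list, 3 of 6 genes were tested, Nppa and Dkk3 included (median −1.06, and −1.21 to −0.83 when 1 library was left out). Its mean log2 CPM did not overlap (4.44 to 5.29 against 4.08 to 4.27), but its summed raw level did (282 to 826 against 259 to 347 CPM). The part of these markers in the called genes was not tested.

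**Figure D3:**
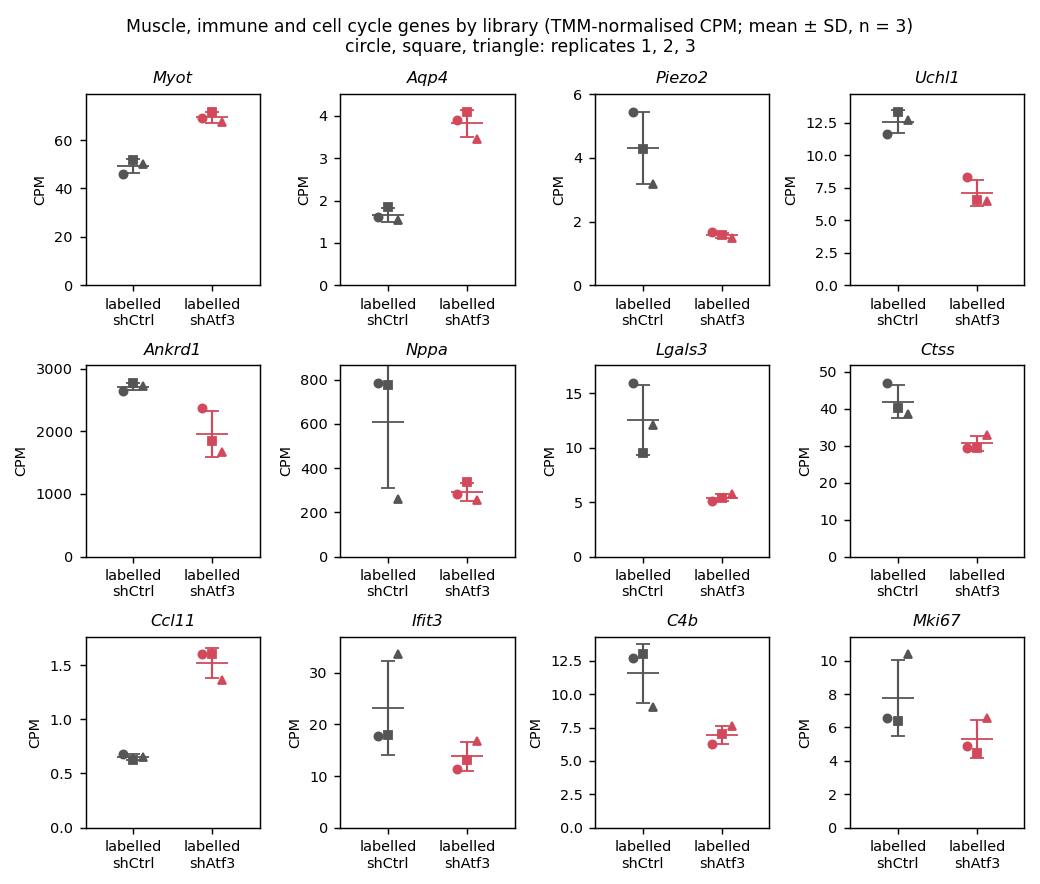
TMM-normalised CPM (y axes, linear, from 0) of 12 muscle, immune and cell cycle genes in each library labelled shCtrl (grey) or shAtf3 (red), with mean and SD (n = 3 each). Myot, Aqp4 and Ccl11 lie higher in all red points, Piezo2, Uchl1 and Lgals3 lower, and Nppa, Mki67 and Ifit3 show 1 control-labelled replicate apart from the other two.

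Immune genes had small negative fold changes on most lists, with 1 gene called lower (0.730% of the tested genes, beside 0.453% of all genes) and 1, Ccl11, called higher (0.730%, beside 0.0854%), which passed the filter only through the group where it was high, so that nothing is read from its share. Of 187 listed genes 137 were tested, 121 with negative and 16 with positive fold changes (median −0.21). Without overlap, 29 (21.2%) were lower and 2 (1.46%) higher, beside 9.94% and 8.48% of all genes. Under the column names these shares turn round, and most immune genes would have positive fold changes with Atf3 knockdown. Lgals3, or galectin-3, a lectin of activated macrophages that fibroblasts also make, was the only lower gene called. It was at 16, 9.54 and 12.1 against 5.13, 5.35 and 5.74 CPM (log2 fold change −1.22 with an SE of 0.18, adjusted p 0.0299 in edgeR). The chemokine Ccl11, eotaxin-1, was the only higher one. It passed the filter only through the libraries labelled shAtf3, at 0.676, 0.628 and 0.653 against 1.6, 1.6 and 1.36 CPM (log2 fold change 1.22 with an SE of 0.19, adjusted p 0.0348 in edgeR). Of the 18 chemokine genes tested, 12 had negative fold changes.

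The macrophage and monocyte list had 22 of 27 genes with negative fold changes (median −0.22). Ctss, a lysosomal protease of antigen-presenting cells (log2 fold change −0.45 with an SE of 0.09, adjusted p 0.0767 in edgeR), and Gpnmb, a marker of lipid-handling macrophages (−0.71), were not called. Of the defining markers, Adgre1, encoding F4/80, was at 24.3, 18.8 and 20.1 against 19.7, 17.1 and 17.9 CPM (log2 fold change −0.21, edgeR adjusted p 0.46) and Cd68 had a log2 fold change of −0.29 (edgeR adjusted p 0.379). Cd163, a marker of resident macrophages, had one of 0.28 (0.436). Ptprc, the pan-leukocyte marker CD45, was at 7.77 to 11.1 raw CPM in the libraries labelled shCtrl and 7.71 to 9.79 in those labelled shAtf3. The 7 macrophage markers summed to 397 to 473 raw CPM in the libraries labelled shCtrl and 356 to 398 in those labelled shAtf3.

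Interferon response genes had negative fold changes in all 31 tested cases (median −0.24), but 0 were called by edgeR (6 at an unadjusted p below 0.05, and 1 by DESeq2), and 4 (12.9%, beside 9.94% of all genes lower) were free of overlap. Their levels followed 1 library: the list's mean log2 CPM, centred over the 6 libraries, was 0.01, −0.06 and 0.53 in the control-labelled group, against −0.26, −0.21 and 0.01 in the knockdown-labelled one. Ifit3, an antiviral effector, was at 17.8, 18 and 33.6 against 11.4, 13.2 and 16.8 CPM (log2 fold change −0.75 with an SE of 0.25, adjusted p 0.26 in edgeR), with shCtrl replicate 3 highest. Without shCtrl replicate 2 the list's median was −0.36, and without replicate 3 it was −0.0766. Complement genes were all below 0 as well (14 of 14, median −0.35), and C4b came closest to the threshold at 12.7, 13 and 9.01 against 6.25, 6.99 and 7.58 CPM (log2 fold change −0.74 with an SE of 0.15, adjusted p 0.0799 in edgeR). Among 22 genes of antigen presentation, 21 had negative fold changes (median −0.17, and −0.097 without shAtf3 replicate 2), and H2-Aa, a class II chain, had one of −0.12 (edgeR adjusted p 0.777). Neither list held a gene called by edgeR, with 9 complement and 2 antigen presentation genes at an unadjusted p below 0.05 and 4 and 0 called by DESeq2.

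Lymphocytes were barely detected. Of 21 T, B and NK cell genes only Cd4 and Ighm passed the filter, Cd3e was at 0.0665 to 0.395 raw CPM and Cd79a at 0.287 to 0.960 raw CPM over the 6 libraries. Cd4 was at 1.79, 1.61 and 1.31 against 0.859, 1.44 and 1.09 CPM (log2 fold change −0.48 with an SE of 0.23, adjusted p 0.432 in edgeR) and Ighm at 10.2, 7.93 and 12.9 against 9.19, 7.98 and 9.69 CPM (log2 fold change −0.21 with an SE of 0.17, adjusted p 0.654 in edgeR). Both fold changes were negative, neither was called, and the groups overlapped for each gene, although not for the mean log2 CPM of the pair (1.87 to 2.12 in the control-labelled and 1.54 to 1.79 in the knockdown-labelled libraries).

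**Figure D4:**
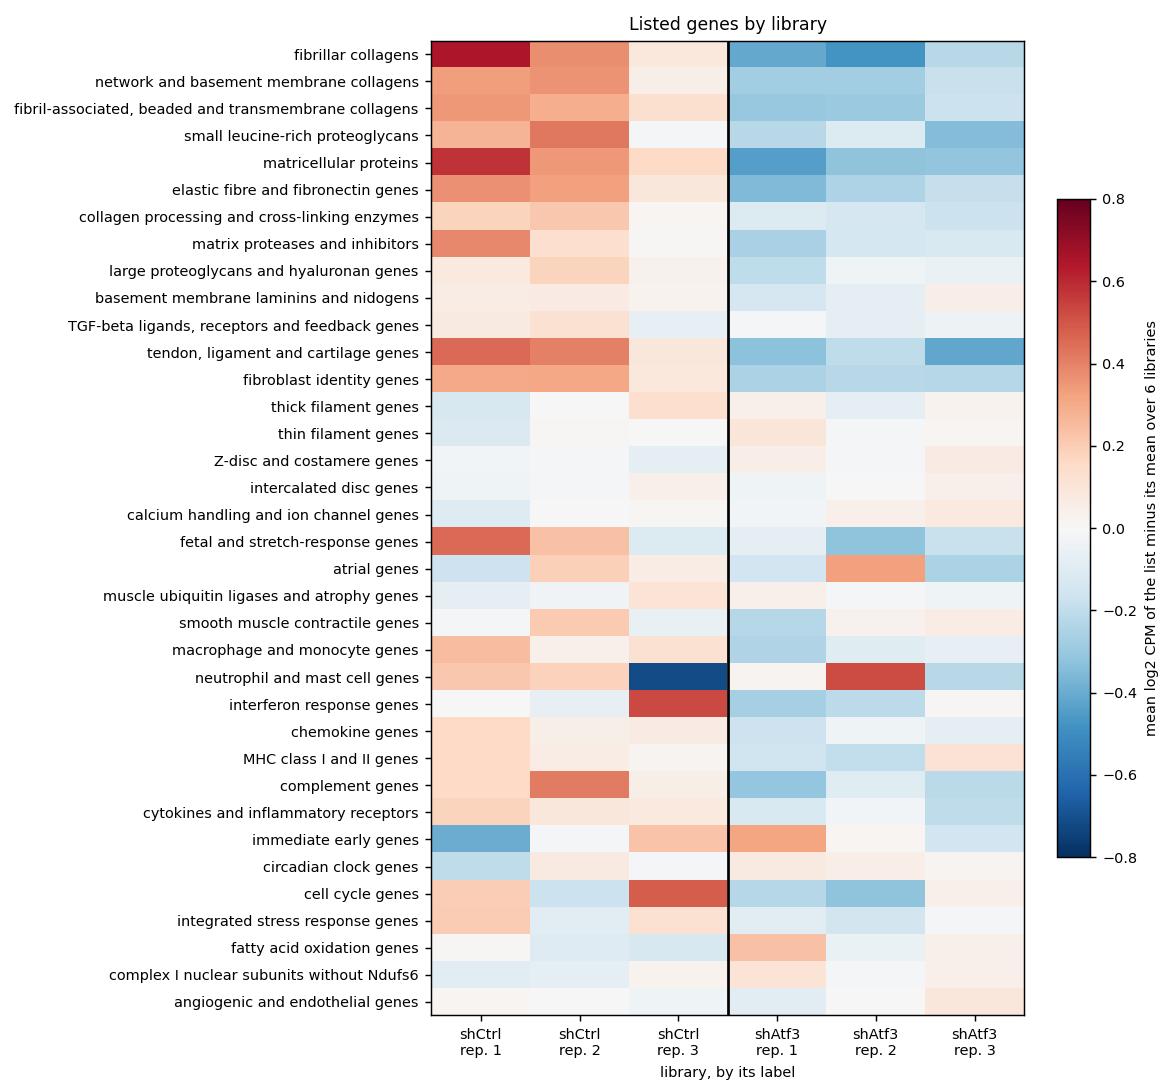
Mean log2 CPM of each gene list in each library (columns, 3 labelled shCtrl and 3 labelled shAtf3), minus the list's mean over the 6 libraries (colour scale, red above and blue below). The collagen, matricellular, elastic fibre and fibroblast rows are red in all control-labelled and blue in all knockdown-labelled libraries, most strongly in shCtrl replicate 1 or 2, whereas interferon and cell cycle rows are highest in shCtrl replicate 3.

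The list levels by library show how the programs divided. For fibrillar collagens the centred mean log2 CPM was 0.65, 0.37 and 0.09 in the control-labelled and −0.41, −0.48 and −0.22 in the knockdown-labelled libraries, and for matricellular proteins 0.58, 0.34 and 0.16 and −0.44, −0.32 and −0.32. Control-labelled replicate 3 thus lay nearest to the other group in both. It was also the lowest control-labelled library for 56 of the 69 lower genes, and leaving it out raised the count of calls to 285. Control-labelled replicate 1 stood apart in clock genes, with Arntl, a core clock activator, at 7.6, 1.71 and 1.41 CPM in that group and at 1.51, 1.7 and 1.7 CPM in the other. The part of these library differences in the results was not tested. Cell cycle genes had negative fold changes in 22 of 23 tested cases (median −0.35, and −0.18 without shCtrl replicate 3), with 0 called by edgeR or DESeq2 (5 at an unadjusted p below 0.05 in edgeR), and Mki67 was at 6.54, 6.38 and 10.4 against 4.92, 4.45 and 6.59 CPM. The mesothelial genes Upk3b and Msln were at 1.56 and 1.63 raw CPM in shAtf3 replicate 2 and at or below 0.236 in the other 5 libraries.

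Metabolic genes had mostly positive fold changes as labelled (87 of 128 tested, negative under the column names), with 1 gene called, higher (0.781% of the tested, beside 0.0854% of all genes). Of 26 fatty acid oxidation genes, 24 had positive fold changes (median 0.16, and 0.10 without shAtf3 replicate 1) and 12 (46.2%) were higher without overlap, beside 8.48% of all genes tested. Acsl1, which activates long-chain fatty acids, was at 1272, 1328 and 1022 against 1548, 1485 and 1482 CPM (log2 fold change 0.32 with an SE of 0.09, adjusted p 0.206 in edgeR). Of 35 nuclear-encoded complex I subunits other than Ndufs6, 34 had positive fold changes and 1 a negative one, over a range from −0.02 to 0.19, and 13 (37.1%) were higher without overlap. Both lists held 0 genes called by edgeR, with 13 and 5 at an unadjusted p below 0.05 and 1 and 0 called by DESeq2. Ppargc1a, the coactivator of mitochondrial biogenesis, was at 109, 108 and 97.6 against 129, 128 and 124 CPM, separate but not called (log2 fold change 0.28 with an SE of 0.06, adjusted p 0.121 in edgeR). Integrated stress response genes had 20 negative and 8 positive fold changes (median −0.13, and −0.064 without shCtrl replicate 3 and −0.072 without shAtf3 replicate 2). Gdf15, a stress-induced secreted factor, was at 12.4, 3.62 and 3.94 against 1.96, 1.12 and 2.58 CPM (log2 fold change −1.82 with an SE of 0.50, adjusted p 0.193 in edgeR), with shCtrl replicate 1 far above the rest. Atf4, Atf5 and Ddit3, the transcription factors of this response, had log2 fold changes of −0.13, 0.18 and −0.01 and none was called.

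Of the 13 higher genes as labelled, 9 were on no list. Gcnt1, a glycosyltransferase of O-glycan branching, was at 5.12, 3.82 and 3.47 against 7.26, 12.1 and 10.1 CPM (log2 fold change 1.24 with an SE of 0.20, adjusted p 0.0415 in edgeR). Rnls, encoding renalase and annotated as a transcribed pseudogene in this build, was at 11.3, 10.3 and 9.09 against 15.6, 15.5 and 15.1 CPM (log2 fold change 0.59 with an SE of 0.09, adjusted p 0.0392 in edgeR), and Car14, a membrane carbonic anhydrase, at 130.1 ± 7.53 against 169 ± 5.42 CPM (log2 fold change 0.38 with an SE of 0.06, adjusted p 0.0439 in edgeR). Nabp1, a single-stranded DNA binding protein gene, was at 249, 252 and 212 against 337, 318 and 337 CPM (log2 fold change 0.47 with an SE of 0.08, adjusted p 0.0396 in edgeR). Hsd17b7, an enzyme of cholesterol synthesis, was called at 15.5 ± 0.955 against 22 ± 1.38 CPM (log2 fold change 0.50 with an SE of 0.08, adjusted p 0.0392 in edgeR). The 23 tested genes of its list had a median of −0.02 (−0.072 to 0.014 when 1 library was left out). Snurf, Snrpn and Snhg14 belong to 1 imprinted locus on chromosome 7 where their annotations overlap, so their 3 calls (log2 fold changes 0.42, 0.42 and 0.38) are not independent. Car14 and Snhg14 were chosen after their values were seen.

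The last comparison asked whether the effect of the vector differed from that of the Atf3 knockout. The experiments share no library. Atf3 transcript was at 6.24 to 25.4 raw CPM in the Atf3+/+FS6KD hearts and at 14.4 to 38.7 raw CPM in the Atf3-/-FS6KD hearts, so its level did not mark the knockout either. The knockout comparison alone gave 0 called genes in edgeR of 15592 tested (1575 at an unadjusted p below 0.05). When all 14 libraries shared 1 estimate of the spread, the knockout effect passed for Dusp23, Spp1, Nfkb2 and Ptn (edgeR adjusted p 0.0333, 0.0447, 0.0447 and 0.0462). These were looked up only among the 26 genes of the next comparison. In 1 fit over all 14 libraries, the knockout effect differed from the vector effect as labelled for 26 of 15708 genes (0.166%), a difference above 0 for 24 of them and below 0 for 2. With the vector groups exchanged as the column names read, it differed for 0 genes (0%) in edgeR, with 651 at an unadjusted p below 0.05 against 2664 as labelled. A count of 0 does not show that the effects were alike.

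Of the 26 genes, 10 were on a matrix list (194 tested there, beside 26 of all 15708 genes), and 11 were among the 82 called genes. The vector effect is 1 term of this contrast, so sharing genes with the 82 calls was built in. The matrix lists were chosen with earlier results of these data known, so neither count is support. Cthrc1, 1 of the 10 matrix genes, and its copy Cthrc1_1 passed the filter only through the groups where they were high. Col3a1 had a log2 fold change of 0.71 in the knockout and −1.05 in the vector experiment as labelled, a difference of 1.76 (edgeR adjusted p 0.014). With the vector groups exchanged the difference was −0.33. Mmp2 differed by 1.25 as labelled (0.0122) and by −0.46 exchanged. Fn1, Col1a1, Col1a2, Col6a1 and Dpt differed by 1.39, 1.47, 1.30, 0.98 and 0.76 as labelled. Piezo2 had 1.03 in the knockout against −1.45 in the vector experiment, Lgals3 1.16 against −1.21, and Ptn 1.13 against −1.01. Spp1 differed most, at 2.34 against −1.22. Ckmt2, the mitochondrial creatine kinase of muscle, and Dusp23, a phosphatase, were the pair with a negative difference (−0.41 and −0.80). The fit depended on single vector libraries: the 26 calls became 3, 0 and 11 without shAtf3 replicate 1, 2 or 3 and 5, 4 and 41 without shCtrl replicate 1, 2 or 3. Atf3-/-FS6KD replicate 1 lacked Xist, the X-inactivation transcript of female cells, at 0.342 raw CPM against 139 to 173 in the other 13 libraries. Without it 68 genes were called as labelled and 0 exchanged.

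**Figure D5:**
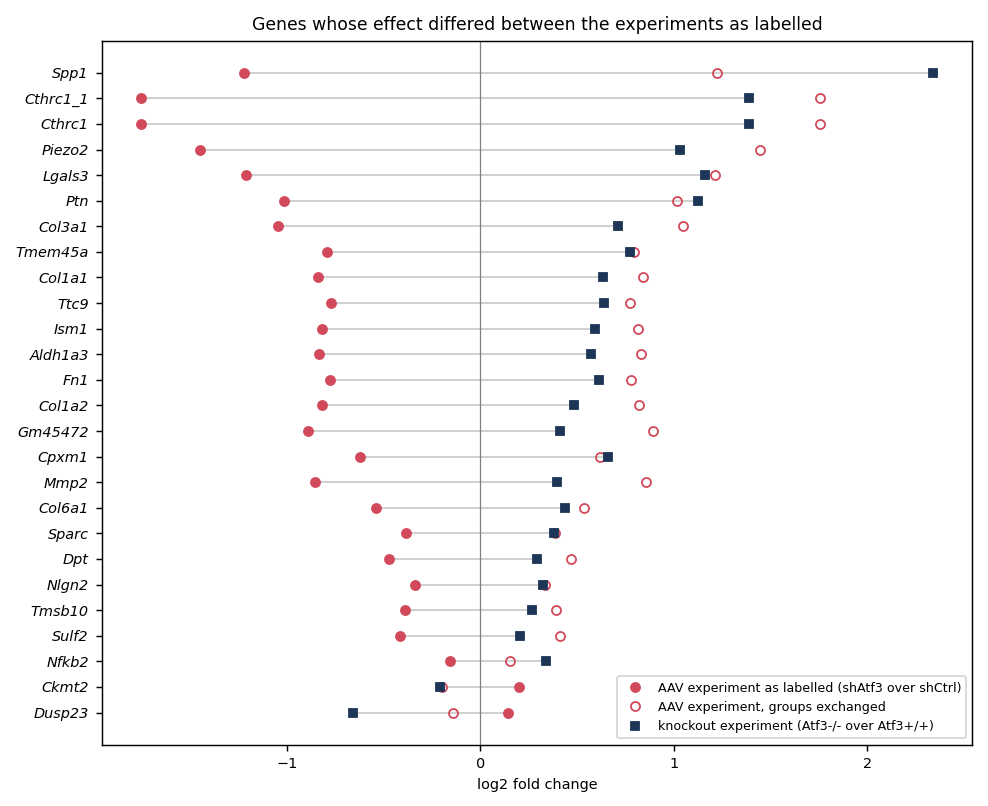
Log2 fold changes (x axis) of the 26 genes whose effect differed between the experiments as labelled: vector experiment as labelled (filled red), with groups exchanged (open red), and knockout over wild type for Atf3 (blue squares). For 24 genes the filled red point lies left of the square, and the open red point lies nearer to the square for all 26, which their choice by the labelled difference favours.

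The 69 lower genes had a median log2 fold change of −0.71 in the vector experiment and of 0.29 in the knockout, where 63 were above 0 and 6 below, beside 7528 above and 7581 below 0 among all 15109 genes tested in both. The matrix lists had a median of 0.19 in the knockout against −0.36 as labelled and 0.36 exchanged. Muscle lists stood at −0.11 against 0.04 as labelled, and immune lists at 0.22 against −0.21. The muscle lists were mixed. Of the 9 lists, the medians of 5 lay on opposite sides of 0 in the experiments as labelled and those of 4 on the same side, among them the fetal and stretch-response genes (−0.36 in the vector experiment and −0.10 in the knockout, over the 12 genes tested in both). The pooled muscle median in the vector experiment fell to 0.0033 with library size alone as the scaling.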

How the data were processed

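RNA-seq was analysed for the 6 MyoAAV2 hearts, with the 8 knockout-experiment hearts for 1 comparison. The authors deposited estimated counts per gene for 42396 genes, made with featureCounts 2.0.0 on GRCm38.p6 per the submitters' processing notes. About 19.3 to 20.6% of values in a vector library and 19.5 to 24.4% in a knockout-experiment library were not whole, so all were rounded. Counts of 2379 rows are copies of genes on alternate loci and share reads with them. No sample column was left out (0).

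Groups came from the sample labels, not from the column names. Genes above 1 CPM in at least 1 library were tested with edgeR 4.0.16 (R 4.3.3; TMM normalisation, quasi-likelihood F-test, Benjamini-Hochberg adjustment). The biological coefficient of variation was 9.37%. The SE was derived from the fold change and F. CPM values are TMM-normalised unless called raw. The difference between experiments was 1 contrast in an edgeR fit of 14 libraries. Motifs and promoters came from RefSeq. The test code was checked on simulated data. Total counts were 30085432 to 40534913 per vector library. In the knockout experiment, replicates 3 and 4 of both genotypes were deeper (112904389 to 134920825) than replicates 1 and 2 (33914931 to 42409691). A single-gene exact permutation test of 3 against 3 cannot go below p = 0.1, so none was used. The labels do not say that replicates with the same number share an animal, litter or day, and p-values measure the spread between these hearts.

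The experiment, gene lists and named genes were chosen with earlier results of these data known. The genes named were those called on each list, up to 4 of smallest p where fewer than 4 passed, 8 leading genes per direction and a fixed set of markers, and others are said to have been chosen after their values were seen or are genes of the comparison with the knockout. The design had assumed whole counts, and the same tests were kept for the rounded values. DESeq2 1.42.0, other scalings and filters, a replicate block, merging of copies and leaving out each library were tried as alternatives.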

Additional observations from a re-analysis of the deposited data

Results flagged for a closer look

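Xist, the X-inactivation transcript of female cells, was at 0.342 raw CPM in Atf3-/-FS6KD replicate 1, far below the other 3 libraries of its group, although the sample is labelled female and the Y-linked genes Ddx3y, Kdm5d and Eif2s3y were at 0 raw CPM in it. The other 13 libraries of the series had 139 to 173 raw CPM. The rule that singled it out, the gap to the nearest sample over the group's range, marks about 1 in 20 groups by chance and does not measure the size of this loss. The 6 MyoAAV2 libraries were at 146 to 173 raw CPM, and the library entered only the comparison with the knockout.

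The effect of the knockout minus that of the vector, as labelled, passed an interaction test across all genes (edgeR adjusted p below 0.05) for the following genes named above. On the log2 scale the knockout effect was above the vector effect for Spp1 by 3.56, Cthrc1_1 by 3.14, Cthrc1 by 3.14, Piezo2 by 2.48, Lgals3 by 2.37, Ptn by 2.14, Col3a1 by 1.76 and Col1a1 by 1.47. It was also above it for Fn1 by 1.39, Col1a2 by 1.30, Gm45472 by 1.30, Mmp2 by 1.25, Col6a1 by 0.98 and Dpt by 0.76. The difference was below 0 for Dusp23 (−0.80) and Ckmt2 (−0.41). Cthrc1 and Cthrc1_1 passed the 1 CPM filter only through the groups where they were high, with the 3 libraries labelled shAtf3 at 0.449 to 0.476 CPM and the Atf3+/+FS6KD libraries at 0.308 to 0.717 CPM, and are no support for a difference. Cthrc1_1 is a copy of Cthrc1 and Gm45472 overlaps Mmp2, so these are not separate results. With the vector groups exchanged, no gene passed (0 of 15708, with 651 at an unadjusted p below 0.05), and only edgeR was run for this contrast.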

How the results depend on the processing

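The count of 82 called genes was within 1.5 times of its value with RLE size factors (81), library size alone (95), filterByExpr (79) and merged copies (89). DESeq2 called 308 genes (72 higher, 236 lower) and a fit with no filter on low counts 304 (54 higher, 250 lower). With library size alone 7 higher genes and 88 lower genes were called. Without overlap, 707 genes were then higher and 2184 lower, against 1291 and 1514 in the main fit. Library size alone moved the median of all genes to −0.04. Chosen after seeing the data, thinning to equal depth gave 85 calls, and a fit of all 14 libraries 1 call, 0 higher and 1 lower. Leaving out 1 library gave 1 to 285 calls, 0 to 27 higher and 1 to 258 lower, and 1953 to 2277 genes higher and 2073 to 2557 lower without overlap, where fewer libraries make separation easier. The causes of the other changes were not tested.

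The replicate block gave 20 calls, 1 higher and 19 lower. Deviations of same-numbered libraries correlated at −0.00037, 0.15 and 0.083, and 3 of 6 libraries correlated best with their own number, so the numbers were not taken as pairs.

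The difference from the knockout, as labelled, gave 26 genes, 205 with library size alone, 68 without Atf3-/-FS6KD replicate 1 (chosen after seeing the data), and 0 to 41 without 1 vector library. With groups exchanged it gave 0 in each of these fits. List medians moved with library size alone for Z-disc (0.047), intercalated disc (−0.042), cholesterol (−0.063) and all muscle genes (0.0033), and with filterByExpr for epicardial and mesothelial markers (−0.033). Without 1 library the medians of these lists moved by more than the spread between replicates and ranged as follows: network and basement membrane collagens −0.48 to −0.29, fibril-associated, beaded and transmembrane collagens −0.69 to −0.46, matricellular proteins −0.73 to −0.49, collagen processing and cross-linking enzymes −0.27 to −0.17, large proteoglycans and hyaluronan genes −0.24 to −0.042, tendon, ligament and cartilage genes −0.58 to −0.36, fibroblast identity genes −0.49 to −0.36. The remainder of these were intercalated disc genes −0.028 to 0.048, chemokine genes −0.23 to −0.17, cytokines and inflammatory receptors −0.25 to −0.12, circadian clock genes 0.039 to 0.25, cholesterol synthesis and uptake genes −0.072 to 0.014, epicardial and mesothelial markers −0.20 to 3.86, tendon and cartilage cell markers −0.45 to −0.20, all muscle lists 0.0042 to 0.068. Other list medians moved by over 1.5 times or changed sign without 1 library but by less than that spread: matrix proteases and inhibitors −0.31 to −0.18, basement membrane laminins and nidogens −0.16 to −0.076, TGF-beta ligands, receptors and feedback genes −0.098 to −0.015, thick filament genes −0.070 to 0.10, thin filament genes 0.055 to 0.13, calcium handling and ion channel genes 0.041 to 0.13, fetal and stretch-response genes −0.37 to −0.20, atrial genes −0.23 to 0.12, muscle ubiquitin ligases and atrophy genes −0.028 to 0.039, smooth muscle contractile genes −0.19 to 0.048, neutrophil and mast cell genes −0.18 to 0.14, interferon response genes −0.36 to −0.077, MHC class I and II genes −0.26 to −0.097, immediate early genes −0.12 to 0.22, cell cycle genes −0.51 to −0.18, integrated stress response genes −0.18 to −0.064, fatty acid oxidation genes 0.10 to 0.21, mitochondrial regulators 0.049 to 0.093, angiogenic and endothelial genes −0.024 to 0.054, cardiomyocyte markers 0.083 to 0.16, endothelial markers −0.0034 to 0.043, lymphatic endothelial markers −0.23 to −0.038, pericyte and smooth muscle markers −0.13 to 0.036, neutrophil markers −0.20 to 1.14, erythrocyte markers −0.19 to 0.49, all metabolism lists 0.040 to 0.12. Genes that changed sign without 1 library, none of them called, had log2 fold changes in these ranges: Arntl −1.51 to 0.066, Ddit3 −0.11 to 0.080, H2-Aa −0.24 to 0.036, Myh6 −0.014 to 0.14, Ptprc −0.12 to 0.14, Xist −0.079 to 0.043. Depth limits genes near 1 CPM, such as lymphocyte and tendon genes.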
